A study of Monodelphis domestica and Mus musculus with 2 samples.

Results

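Parvalbumin-type (Pvalb) interneurons of the opossum primary visual cortex (V1) are described here across genes and across cortical depth. The members were the segmented cells inside the V1 regions that passed the authors' filter and carried both the subclass label Pvalb and the class label GABAergic, which gave 197 cells of 4806 opossum V1 cells and of 13933 V1 cells in both species. The data are Stereo-seq, in which RNA with a poly(A) tail binds to barcoded spots under the section, and which sums the unique molecular identifiers (UMIs) over each cell outlined on an image of it. A 10 µm section was cut from a block that held 2 coronal slices of 1 opossum (Monodelphis domestica, a male of about 6 months from a laboratory colony), and a section of a wild-type C57BL/6J mouse (male, about postnatal day 40) is used only for a short comparison. The opossum section held 3 V1 regions, which come from the same animal and are not biological replicates. Which region lies in which slice is not given in the sources used here, so differences between regions and between slices cannot be told apart.

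Pvalb interneurons are the fast-spiking inhibitory neurons of the cortex. They release GABA onto the cell bodies and proximal processes of their targets, arise from the medial ganglionic eminence (MGE) together with somatostatin (Sst) interneurons, and in many mammals carry perineuronal nets, a specialized extracellular matrix. They are classically marked by the calcium-binding protein parvalbumin and by potassium channels that allow brief action potentials, whereas Sst interneurons target dendrites and are marked by the neuropeptide somatostatin.

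The authors transferred labels from an opossum single-nucleus atlas to these cells through their nearest neighbors in a shared expression space, over successive rounds with looser agreement. The label was therefore set by the same counts that are described below, so differences between labelled groups in gene levels are given as a description and no test was run on them. Position was not used for the labels. No opossum feature carries the symbol PVALB, so parvalbumin itself is not analysed here. Levels are pooled UMIs per 10000 UMIs with exact 95% Poisson intervals, and intervals throughout cover counting error only.

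The 197 Pvalb cells comprised 76, 94 and 27 cells in regions 1, 2 and 3. They made up 59.5% of the 331 GABAergic cells, with 59.4%, 65.7% and 45% in the 3 regions, and 4.10% of all V1 cells. These are shares of labelled cells. The authors took neither absolute nor relative cell densities from their Stereo-seq data, because transcripts may drop out, possibly more so in the opossum. The members held 350443 UMIs, with a median of 1665 UMIs and 988 genes per cell. The comparison groups were 84 Sst cells of GABAergic class (134131 UMIs, median 1514 per cell) and 3752 cells of glutamatergic class (median 1344). The whole opossum section held 84570416 UMIs in 80369 cells, its RNA integrity number was 7.1, and the 2 libraries shared 0 cell barcodes.

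The markers of the class were high in the labelled cells. GAD1, one of the enzymes that make GABA, stood at 11.6, 14.9 and 18.4 UMIs per 10000 in the Pvalb cells of regions 1, 2 and 3, and at 14.1 (95% interval 12.9 to 15.4) over all of them. Its level was 2.36 in glutamatergic and 2.74 in nonneuronal cells, so that Pvalb cells exceeded glutamatergic cells 6.00-fold (5.4 to 6.66). GAD2, the second GABA-synthesizing enzyme, was even across regions (9.29, 9.38 and 9.21) and reached 9.33 (8.35 to 10.4) in all Pvalb cells, against 1.54 in glutamatergic cells. HAPLN4, a link protein of perineuronal nets, was sparse everywhere, with 36 UMIs in 23 of the 197 Pvalb cells, a level of 1.03 (0.719 to 1.42), 0.365 in glutamatergic cells and 1 UMI in all Sst cells. HAPLN4 thus lay 2.81-fold (1.92 to 4.03) above glutamatergic cells, and its ratio to Sst cells, 13.8, has an interval from 2.32 to 559.

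UMIs of the GAD genes were also found in cells of the other classes, and their source there was not tested. The glutamatergic class holds 142 cells with the subclass label Pvalb, 83 with Sst and 19 with Vip, as well as 331 labelled oligodendrocytes (OD), 133 astrocytes, 70 oligodendrocyte precursors and 50 endothelial cells. At least 1 GAD1 or GAD2 UMI was found in 86.8% (exact 81.3 to 91.2%) of Pvalb cells, but also in 31.4% of glutamatergic and 32.6% of nonneuronal cells, whose median depths were 1344 and 1155 UMIs. After each cell was thinned to 300 UMIs, which left out 5 Pvalb, 128 glutamatergic and 18 nonneuronal cells, these shares became 47.4% (40.2 to 54.7%), 10.7% and 12.4%. The interval of the share in Pvalb cells thus lay above the other values also at equal depth. For HAPLN4 the thinned shares were 2.08% (0.57 to 5.25%) in Pvalb and 1.67% (0.836 to 2.97%) in nonneuronal cells, so a difference was not detectable at this depth. SST, the neuropeptide of Sst cells, stood at 4.34 (3.68 to 5.08) in Pvalb cells, 4.56 in glutamatergic cells and 60.9 in Sst cells, so the pooled level in Pvalb cells was near that in glutamatergic cells.

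**Figure D1:**
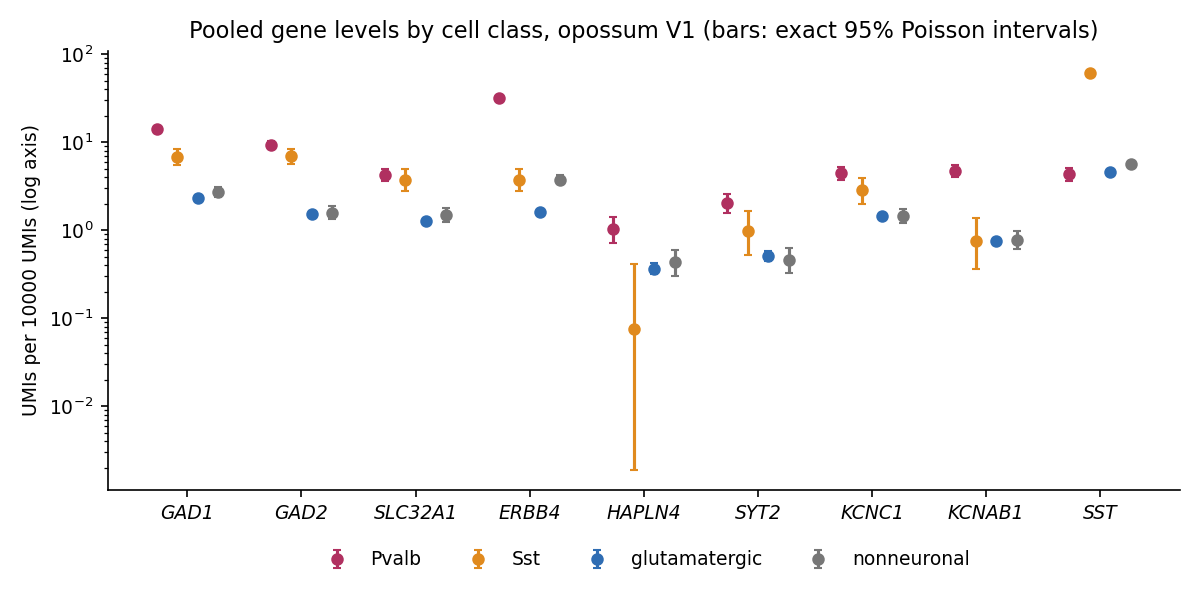
Pooled levels of 9 genes (UMIs per 10000 UMIs, log axis) in Pvalb, Sst, glutamatergic and nonneuronal cells of opossum V1, with exact 95% Poisson intervals. ERBB4 separates Pvalb cells (32.1) from all 3 other classes, the GAD genes separate both GABAergic groups from the rest, and SST stands highest in Sst cells (60.9).

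ERBB4, the neuregulin receptor that GABAergic interneurons carry, had the highest ratio to glutamatergic cells among the called genes with a symbol. Its level was 29.5, 30.1 and 50.2 in the Pvalb cells of regions 1, 2 and 3, against 1.69, 1.66 and 1.32 in glutamatergic cells, and the pooled ratio was 20.1 (18.4 to 21.9). In Sst cells ERBB4 was at 0.410, 7.36 and 2.12 in the 3 regions, which gave a pooled ratio of 8.61 (6.49 to 11.7) and of 33.1 without region 2. Vip cells, another interneuron subclass of which only 19 were labelled, reached 49.1, so a high ERBB4 level was not particular to Pvalb cells. ERBB4 was unevenly spread over cells, with 1125 UMIs in 111 of 197 cells and 27.6% of them in 5 cells, whereas 11.7% of GAD1 UMIs lay in 5 cells. Without those 5 cells ERBB4 was still 14.9-fold above glutamatergic cells. GAD1 or GAD2 occurred together with ERBB4 in 90 cells, without it in 81, and ERBB4 alone in 21, which left 5 cells with none of the genes (median 473 UMIs).

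Across genes, a gene was counted as higher or lower in Pvalb cells when its pooled levels differed at least 2-fold, it lay on the same side in each of the 3 regions, and the mean of both levels was at least 1 UMI per 10000. Against glutamatergic cells, 2395 genes met the level minimum, of which 69 (2.88%) were higher and 53 (2.21%) lower in Pvalb cells. Among the genes higher in Pvalb cells that carry a symbol, the 10 with the highest ratio were ERBB4, LTBP1, SVIL, MYO16, PTPRM, RND3, ZNF385D, VWC2, TMTC2 and KCNAB1. The median ratio over all genes tested was 0.989.

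LTBP1, a binding protein of latent TGF-β, had 3.28, 2.40 and 1.02 UMIs per 10000 in the Pvalb cells of the 3 regions and 0.113, 0.174 and 0.115 in glutamatergic cells, an 18.8-fold ratio (13.6 to 25.8). SVIL, an actin-associated membrane protein, was 13.7-fold higher (10.3 to 18.3), with 2.71 against 0.197. MYO16, an unconventional myosin, was 12.5-fold higher (9.97 to 15.7), with 5.70, 2.95 and 4.35 in the 3 regions, and 19.6-fold higher without region 2. PTPRM, a receptor tyrosine phosphatase, was 12.2-fold higher (10.4 to 14.4). These levels leaned on few cells in part, since 5 cells held 50% of the LTBP1, 44.2% of the SVIL and 38.3% of the PTPRM UMIs. Without the 5 cells that held most, the ratios were 9.69 for LTBP1, 8.02 for SVIL, 8.50 for MYO16 and 7.75 for PTPRM. Relative to Sst cells and without the 1 cell that held most, PTPRM was at 1.06 and MYO16 at 2.33. A high PTPRM level was thus not particular to Pvalb cells.

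Further genes of this set were more abundant. ZNF385D, a zinc finger gene, stood at 10.9, 9.00 and 15.6 in Pvalb cells and at 1.12 in glutamatergic cells, a 9.34-fold ratio (8.18 to 10.6). KCNAB1, an auxiliary subunit of voltage-gated potassium channels, stood at 6.32, 3.22 and 6.91 against 0.747, a 6.38-fold ratio (5.30 to 7.66), which was 9.58 without region 2. RND3, an atypical small GTPase, was 10.2-fold (7.89 to 13.3), VWC2, a secreted BMP antagonist, 8.91-fold (6.47 to 12.2), and TMTC2 8.02-fold (6.47 to 9.92) higher. TMTC2 was high in regions 1 and 2 (3.98 and 4.42) but close to glutamatergic cells in region 3, at 0.512 against 0.317. Relative to Sst cells TMTC2 was at 0.875 without the 1 Pvalb cell that held most, so its level was not particular to Pvalb cells.

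Among genes with a symbol, those lower in Pvalb than in glutamatergic cells differed by smaller factors. Those with the largest ratio included KCNT2, ZFPM2, CACNA1E, CDH12, SORCS3, SNTG1, PLCL1, KCNH1 and ANO3. KCNT2, a sodium-activated potassium channel, was at 0.625, 0.273 and 0.512 in the Pvalb cells of the 3 regions and at 2.13, 2.02 and 1.71 in glutamatergic cells, 4.68-fold (2.82 to 8.38) lower in Pvalb cells. CACNA1E, the pore subunit of R-type calcium channels, was 3.43-fold (2.43 to 5.0) lower. The other named genes lay between 2.79-fold (ANO3) and 3.55-fold (ZFPM2). Among them the level in Pvalb cells relative to glutamatergic cells depended on region 1 for KCNH1 (0.357, and 0.227 without it) and SNTG1 (0.338 and 0.198). For SORCS3, a sorting receptor, it was 0.311, and 0.134 without region 1 or 0.510 without region 2.

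**Figure D2:**
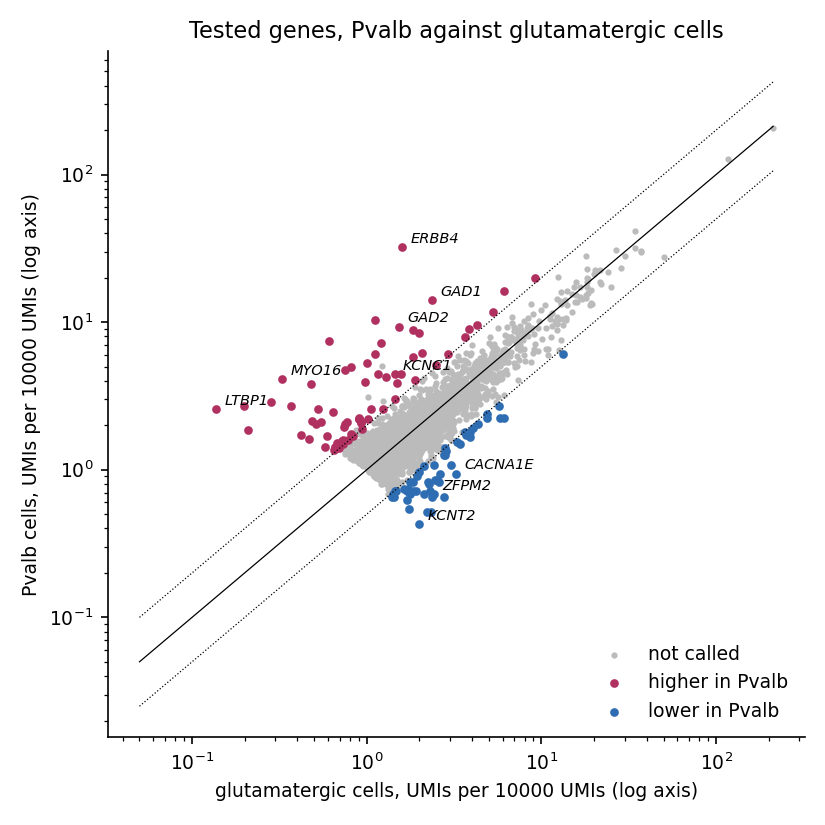
Levels of the 2395 tested genes in Pvalb cells (vertical) and glutamatergic cells (horizontal), both in UMIs per 10000 UMIs on log axes, with equality as a solid line and 2-fold as dotted lines. Among genes with a symbol, higher genes spread up to 20.1-fold (ERBB4), whereas lower genes stay within 4.68-fold (KCNT2).

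Glutamatergic markers were reduced but not absent in Pvalb cells. The summed level of the 7 measured markers was 32.8 in Pvalb cells (33.3, 30.3 and 42.7 in regions 1 to 3), 62.0 in glutamatergic and 54.1 in nonneuronal cells, with NRGN, a calmodulin-binding postsynaptic protein, alone at 27.5 against 50.5 in glutamatergic cells. Of 6 tested markers, 4 were lower by the rule (NEUROD6, TBR1 and SV2B among them) and 0 higher. Oligodendrocyte markers summed to 29.8 in Pvalb and 35.5 in glutamatergic cells (26.7, 34.0 and 20.2 in the Pvalb cells of the 3 regions), with MBP at 23.4, and astrocyte markers to 7.48 and 9.41. The glutamatergic class includes the cells with glial labels counted above, so its levels of these markers are not those of glutamatergic subclasses alone. Of the 5 measured markers of each list, 2 oligodendrocyte and 4 astrocyte markers were tested and 0 were called. Over all genes tested against glutamatergic cells, 2.88% were higher and 2.21% lower. The part of glial RNA in the levels of Pvalb cells was not tested. Microglial, endothelial and oligodendrocyte precursor markers summed to 0.2, 0.542 and 0.171 in Pvalb cells, with CSF1R and P2RY12 at 0. The Vip and Lamp5 lists summed to 0.542 and 0.628, with NDNF at 0.

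Against Sst cells, their nearest developmental relatives, 2415 genes met the level minimum, and 79 (3.27%) were higher and 98 (4.06%) lower in Pvalb cells. The comparison rests on 84 Sst cells. With a region left out, only 2 regions have to lie on the same side, which lets more genes through. The numbers of higher and lower genes were then 131 and 157 without region 1, 177 and 210 without region 2, and 105 and 147 without region 3. Among the named genes, 7 of the 10 highest were also among the 10 highest against glutamatergic cells (SVIL, LTBP1, VWC2, ERBB4, ZNF385D, KCNAB1 and RND3). In all, 26 genes were higher than in both groups, 37.7% of those higher than glutamatergic cells and 32.9% of those higher than Sst cells. Both comparisons share the Pvalb cells, so this overlap is not independent.

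SVIL, LTBP1, NDST3 and VWC2 had only 1 or 2 UMIs in all Sst cells, against 95, 90, 68 and 65 in Pvalb cells, so their ratios are uncertain, from 6.37 to 1451 for SVIL and from 3.31 to 105 for VWC2. They were 36.4 for SVIL (19.6 without region 1), 17.2 for LTBP1 (9.21 without region 1), 13.0 for NDST3 (6.14 without region 1) and 12.4 for VWC2 (5.53 without region 2). ZNF385D was 7.35-fold (4.64 to 12.4) and KCNAB1 6.39-fold (3.39 to 13.6) higher than in Sst cells. For KCNAB1 the ratio was 24.9 without region 2, where Sst cells reached 1.40, and 4.13 without region 1, and for ZNF385D it was 13.2 without region 2. HDAC9, a histone deacetylase, was at 4.45, 3.71 and 4.35 in Pvalb cells and at 0.205, 1.40 and 0.353 in Sst cells, a 5.43-fold ratio (2.87 to 11.6), which was 17.1 without region 2. ZMAT4 was 4.98-fold (2.19 to 14.0) higher, 20.3-fold without region 2 and 3.22-fold without region 1, and had 52.6% of its Pvalb UMIs in 5 cells. NDST3, a heparan sulfate-modifying enzyme, HDAC9 and ZMAT4 were not among the 10 highest against glutamatergic cells. Relative to glutamatergic cells and without the 1 Pvalb cell that held most, they were at 0.871, 1.89 and 2.08. Without the 5 Pvalb cells that held most, they were at 0.645, 1.42 and 1.21. The NDST3 level was thus not particular to Pvalb cells.

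The genes with a symbol that were lower in Pvalb than in Sst cells were led by MOXD1, a monooxygenase-like protein. It had 0 UMIs in Pvalb and 28 in Sst cells. Set against the floor of 3 counts over all Pvalb cells (0.0856 per 10000), the measured level in Sst cells was at least 24.4-fold higher, and with the counting error of both groups the exact interval of the ratio starts at 18.6. RELN, the extracellular glycoprotein reelin, stood at 0.469, 0.546 and 0.256 in the Pvalb cells of the 3 regions and at 10.3, 5.78 and 9.54 in Sst cells, 16.9-fold (10.1 to 30.1) lower. SST was 14.0-fold (11.8 to 16.8) lower, with 48.0, 80.8 and 43.1 in the Sst cells of the 3 regions. PNOC, the precursor of the peptide nociceptin, was 12.2-fold (4.95 to 36.0) lower, its relative level being 0.0820, and 0.0512 without region 2. TRHDE, an enzyme that degrades thyrotropin-releasing hormone, was 10.1-fold (6.60 to 15.9) lower. COL25A1, a transmembrane collagen, was 8.74-fold (5.84 to 13.4) lower. Its level relative to Sst cells was 0.114, and 0.196 without region 1 or 0.0512 without region 2. Of the COL25A1 UMIs in Sst cells, 63.6% lay in 5 cells. Without those cells COL25A1 was at 3.16 in Sst cells, against 0.913 in Pvalb cells.

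CDH9 (7.68-fold), ZFPM2 (7.40-fold), STXBP6 (7.18-fold) and ARHGAP18 (6.53-fold) completed the set. Of the ARHGAP18 UMIs in Sst cells, 64.0% came from 1 cell, and of the CDH9 UMIs 48.0%. Without the 5 Sst cells that held most, ARHGAP18 was at 0.243 in Sst cells, below its 0.285 in Pvalb cells. The 5 such cells of each gene held 74.0% of the CDH9, 69.1% of the ZFPM2 and 62.1% of the STXBP6 UMIs. Without them CDH9, ZFPM2 and STXBP6 were at 1.04, 1.69 and 2.01 in Sst cells, against 0.485, 0.685 and 0.685 in Pvalb cells. Since ZFPM2 was also among the 10 lowest against glutamatergic cells, it was lower in Pvalb cells than in both groups.

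The general machinery of GABAergic neurons did not separate Pvalb from Sst cells to the same extent as it separated them from glutamatergic cells. Of the 10 genes of the GABAergic list, 8 were measured, 5 passed the level minimum and 5 were higher than in glutamatergic cells, with a median ratio of 6.00. Over all tested genes, 2.88% were higher than in glutamatergic cells. SLC32A1, the vesicular GABA transporter, was 3.34-fold (2.78 to 3.99) higher than in glutamatergic cells. Against Sst cells, GAD1 was 2.08-fold (1.66 to 2.63) and ERBB4 8.61-fold higher, and the ratios of GAD2 (1.35) and SLC32A1 (1.15) stayed under 2-fold. DLX1 and DLX2, transcription factors of GABAergic precursors, were below the level minimum, at 0.2 and 0.114 in Pvalb cells.

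The 5 measured transcription factors of the MGE lineage were low. LHX6 stood at 1.23 (0.888 to 1.65), SOX6 at 1.31 (0.961 to 1.75) and MAF at 1.54 (1.16 to 2.01) in Pvalb cells. None of these passed the level minimum against glutamatergic cells, where they were at 0.221, 0.170 and 0.248, so they were not counted although their ratios ranged from 5.55 (LHX6) to 7.73 (SOX6). Against Sst cells these 3 were tested and 0 were called, with ratios of 0.658 for LHX6, 0.587 for SOX6 and 0.765 for MAF. Over all genes tested against Sst cells 3.27% were higher and 4.06% lower, so 0 of 3 does not set these genes apart. NKX2-1, which is active in MGE progenitors, had 0 UMIs.

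Among the 15 genes of the fast-spiking channel list, 10 were measured and 4 tested against glutamatergic cells, of which 2 were higher and 0 lower. Over all tested genes, 2.88% were higher and 2.21% lower against glutamatergic cells, and 3.27% and 4.06% against Sst cells. KCNC1, the Kv3.1 subunit that speeds repolarization, stood at 4.29, 4.58 and 4.10 in the Pvalb cells of the 3 regions, 2.83 in Sst cells and 1.45 in glutamatergic cells. It was thus 3.06-fold (2.56 to 3.64) above glutamatergic cells and 1.56-fold (1.09 to 2.29) above Sst cells. KCNAB3, a further β subunit, was 2.70-fold above glutamatergic cells at a level below the minimum and 2.39-fold (1.13 to 5.84) above Sst cells, where it was called together with KCNAB1. The sodium channel gene SCN1A was at 1.11 times the level of glutamatergic cells, and at 0.917 times without the 5 cells with the highest counts of it, whereas KCNA1 (0.342), KCNA2 (0.628) and SCN4B (0.171) were sparse.

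Of 17 further genes that mark Pvalb cells in mammals, 12 were measured, 7 tested and 4 higher than in glutamatergic cells. Over all tested genes, 2.88% were higher than in glutamatergic cells and 3.27% higher than in Sst cells. SYT2, the fast synaptic calcium sensor of Pvalb terminals, was 3.98-fold (3.02 to 5.18), CNTNAP4, a synaptic contactin-associated protein, 4.88-fold (3.81 to 6.21), LGI2, a secreted leucine-rich protein, 3.85-fold (2.95 to 4.99) and PPARGC1A, a coactivator of mitochondrial genes, 2.73-fold (2.10 to 3.50) higher. Against Sst cells only SYT2 of this list was called, at 2.09-fold (1.15 to 4.12), while LGI2 was at 2.11 and 2.01 in Pvalb and Sst cells. SYT2 was lower in region 3 (0.768) than in regions 1 and 2 (2.11 and 2.24). CPLX1, which regulates vesicle fusion, was the most abundant of the list at 20.1 (18.7 to 21.7), but only 1.61-fold above glutamatergic cells. NEFH, a neurofilament subunit, was at 1.40 against 0.699 and NEFL at 7.19 against 6.46, and neither was called.

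Of 20 genes of the perineuronal net 17 were measured, and 2 of them were tested against glutamatergic cells with 0 calls, where 2.88% of all tested genes were called higher and 2.21% lower. In Pvalb cells 7 of the 17 had 0 UMIs, as did 22.1% of all features with a symbol. Aggrecan (ACAN), the core proteoglycan of nets, had 0 UMIs in Pvalb cells, which allows a level of up to 0.0856, and stood at 0.0548 in glutamatergic cells, so no difference was detectable. CRTAC1, a cartilage matrix protein, was the most abundant at 5.36 (4.63 to 6.19), 1.69-fold (1.45 to 1.97) above glutamatergic and 1.80-fold (1.27 to 2.60) above Sst cells. The link protein HAPLN1 (0.685), the proteoglycan BCAN (0.628) and the glycoprotein TNR (0.656) stayed below the level minimum. Nets themselves were not measured here. In the paper, lectin staining of nets was not enriched around parvalbumin-positive cells in opossum V1, but it was in mouse V1.

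Of the subunits of the GABA-A receptor, through which GABA acts, 9 were measured and 5 tested against glutamatergic cells, of which 1 was higher and 1 lower in Pvalb cells. GABRA2 was the lower one, with 0.628 in Pvalb and 1.69 in glutamatergic cells. GABRB2 was 3.02-fold (1.89 to 5.09) above Sst cells and 1.91-fold (1.61 to 2.25) above glutamatergic cells. Among glutamate receptor subunits, 8 were tested against each group and 0 were called, beside shares over all tested genes of 2.88% higher and 2.21% lower against glutamatergic cells and of 3.27% and 4.06% against Sst cells. GRIA2, which makes AMPA receptors impermeable to calcium, was at 6.22 (5.42 to 7.10) in Pvalb cells against 8.99 in glutamatergic and 10.2 in Sst cells, and GRIA3 was at 3.54 against 2.18 and 2.31.

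Of the Sst list, 8 genes were measured, and CRHBP, which binds corticotropin-releasing hormone, lay between the groups. CRHBP was at 1.71 (1.31 to 2.20) in Pvalb, 5.74 in Sst and 0.420 in glutamatergic cells, and was called higher than in glutamatergic (4.08-fold) and lower than in Sst cells. NPY and CHODL, which mark a subset of Sst cells, had 0 UMIs in Pvalb cells, and only 5 and 3 in Sst cells.

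The certainty of the label moved with some levels. Of the 197 cells, 122 received the Pvalb label in the first subclass round, which required all neighbors in the atlas to bear it, 70 in the second and 5 in the last. The median depth was 1905 UMIs in the first and 950.5 in the second round. ERBB4 was at 39.9 (37.5 to 42.5) in cells of the first round and 10.7 (8.64 to 13.2) in those of the second, and GAD2 at 10.4 and 6.21, whereas GAD1 was at 14.6 (13.2 to 16.2) and 13.1 (10.8 to 15.8). The glutamatergic markers summed to 29.6 and 42.6, and SST was at 3.15 (2.50 to 3.91) and 7.52 (5.78 to 9.62). Between these rounds the intervals of GAD1 overlapped, whereas those of ERBB4, GAD2, SST and the glutamatergic markers did not. With cells of the first round in all groups, ERBB4 was 25.1-fold above glutamatergic and 28.3-fold above Sst cells.

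A further 142 cells carried the Pvalb subclass label but the glutamatergic class label, and 15 the nonneuronal class label. They are not members. In the 142 cells GAD1 was at 6.85 (5.71 to 8.17), ERBB4 at 6.09 and HAPLN4 at 0.603, between the values of Pvalb and glutamatergic cells. With all Pvalb-labelled cells pooled, GAD1 was at 11.5 and ERBB4 at 22.5.

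In depth, Pvalb cells were spread over most of the cortical column. The authors drew the regions by hand between the upper edge of layers 2 and 3 and the lower edge of layer 6, so layer 1 is left out and depth, which was measured from the top of each region and scaled to the tallest one, does not start at the pial surface. The median was 384, 432 and 334 µm in regions 1, 2 and 3, and 408.7 µm over all of them, with an interquartile range from 272 to 563 µm. The spread of the median over the regions was 49.1 µm (SD, n = 3 regions). Sst cells had a median of 353 µm with an interquartile range from 315 to 453 µm.

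Pvalb cells were less concentrated in depth than Sst cells. The width of the interquartile range was 357, 208 and 345 µm for Pvalb cells and 169, 61.0 and 104 µm for Sst cells in regions 1, 2 and 3, so that every region of the former exceeded every region of the latter. The Gini index over 20 depth bins, which is 0 for an even distribution, was 0.281 for Pvalb and 0.586 for Sst cells. For comparison it was 0.416 for IT_A, 0.664 for IT_B, 0.647 for L5PT and 0.620 for L6CT glutamatergic cells. A small group raises this index, and the 84 Sst cells are fewer than the 197 Pvalb cells. Since the regions come from 1 animal, no test was run on this difference.

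The depth profiles differed between regions in the upper cortex. With the height divided into 3 equal parts, 22.3% of the Pvalb cells lay in the upper, 45.7% in the middle and 32.0% in the lower part. In the upper part the share was 35.5% in region 1, 9.57% in region 2 and 29.6% in region 3. Of the Sst cells 75% lay in the middle part, with 64.3%, 88.2% and 68.2% in the 3 regions. Relative to all cells at the same depth, Pvalb cells formed 2.79% (exact 2.04 to 3.73%) of V1 cells in the upper part, 5.17% (4.18 to 6.32%) in the middle and 4.23% (3.26 to 5.38%) in the lower part. In the deepest of 10 bins they were 1.22% (0.450 to 2.64%), or 6 of 491 cells.

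**Figure D3:**
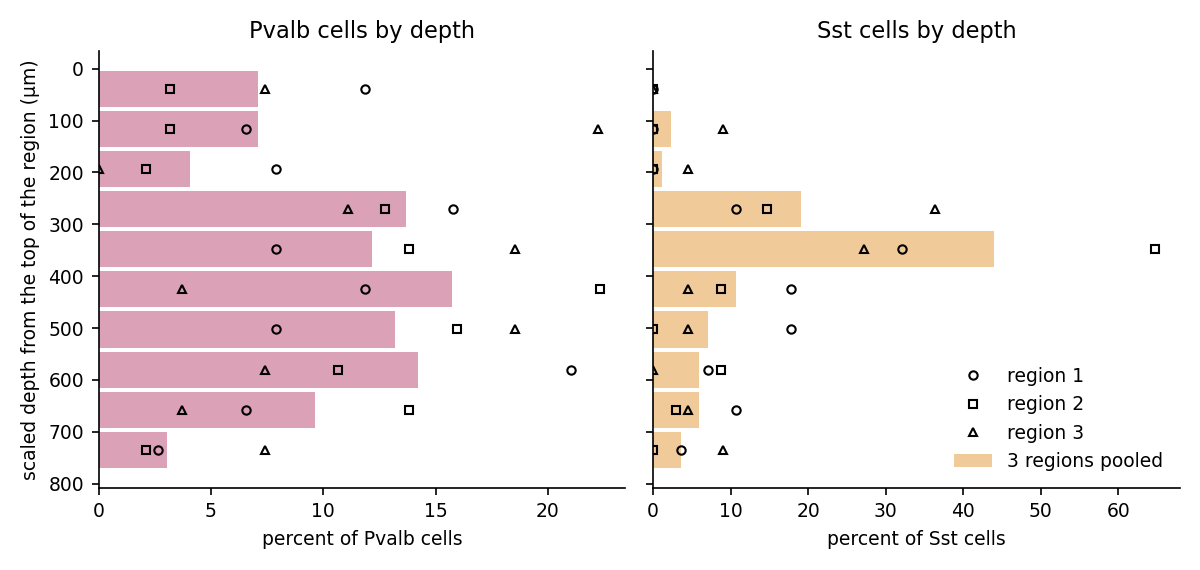
Share of Pvalb cells (left) and Sst cells (right) in 10 depth bins, in percent of the group, with bars for the 3 regions pooled and symbols for each region. The panels have different horizontal scales. Sst cells peak at 309 to 387 µm, where 44.0% of them lie, while no Pvalb bin holds more than 15.7% of the pooled cells.

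Pvalb cells often lay next to one another. The median distance from a Pvalb cell to the nearest other Pvalb cell was 20.8 µm (interquartile range 15.7 to 61.3 µm), with 23.9, 19.4 and 23.4 µm in the 3 regions, and 93 cells (47.2%) had another within 20 µm. From glutamatergic cells, the nearest Pvalb cell was at a median of 55.3 µm, and 8.16% of them had one within 20 µm. The median distance between any V1 cell and its nearest neighbor was 13.1 µm. Joined at 20 µm, the members formed 104 single cells, 25 pairs, 9 groups of 3 and 4 groups of 4.

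This nearness was shared by some other kinds of cells and not by others. The median distance to the nearest cell of the same kind was 28.0 µm for Sst cells and 28.0, 28.4 and 32.8 µm for IT_C, L5PT and IT_B cells, glutamatergic subclasses that are layered. Of the Sst cells 44.0% had another within 20 µm, and in region 2 their median, 18.5 µm, was shorter than that of Pvalb cells there (19.4 µm). The median was 58.3 µm for oligodendrocyte precursors and 49.2 µm for the 142 cells of Pvalb subclass but glutamatergic class. These numbers depend on how many cells of a kind there are and on how they are layered, so they are given side by side without a test. Members with and without another member within 20 µm had GAD1 at 13.9 (12.1 to 15.8) and 14.3 (12.7 to 16.1), ERBB4 at 35.9 and 29.1, and median UMIs of 1614 and 1773. Whether neighboring segmented cells share the RNA of 1 neuron was not tested.

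**Figure D4:**
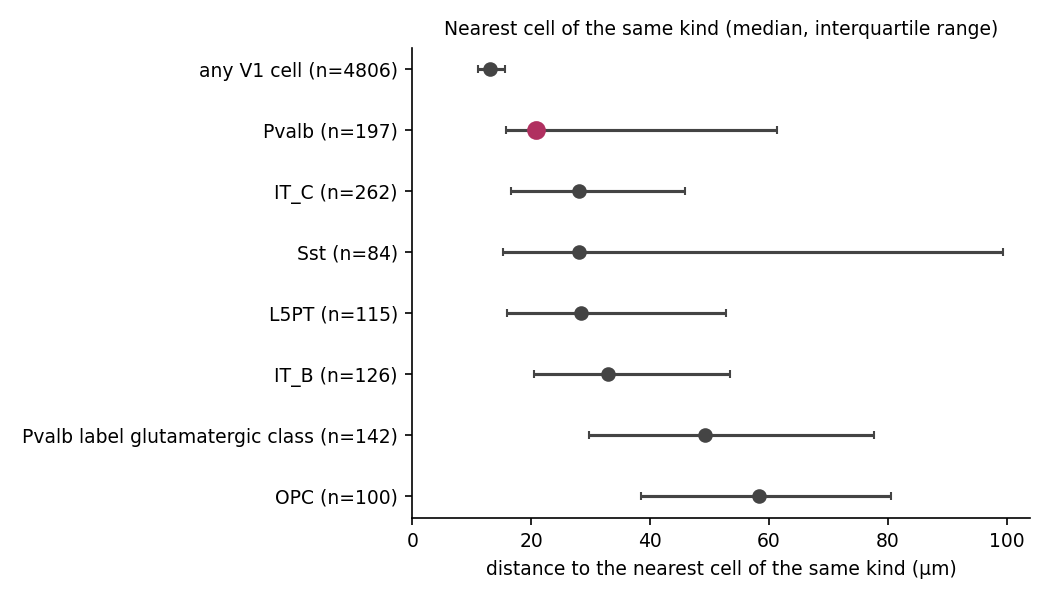
Distance from each cell to the nearest cell of the same kind in µm, as the median (point) and interquartile range (bar) over cells pooled over the regions, with the number of cells beside each kind. Pvalb cells (colored, 20.8 µm) have the shortest pooled median of the labelled kinds drawn. IT_A, L6CT, oligodendrocytes and astrocytes are not among them. In region 2 Sst cells are closer than Pvalb cells (18.5 against 19.4 µm), and any V1 cell lies at 13.1 µm.

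The cells around a Pvalb cell were mostly glutamatergic. Within 30 µm, 68.6% of 1353 neighbors were glutamatergic, 12.9% nonneuronal and 13.0% Pvalb cells, whereas around glutamatergic cells 3.54% were Pvalb cells. The share of Pvalb neighbors was 12.5%, 15.8% and 6.75% in regions 1 to 3, each above the share around glutamatergic cells there (3.49%, 5.07% and 2.14%). IT_A cells formed 26.4% of the neighbors of Pvalb cells and 37.5% of those of glutamatergic cells, and L6CT cells 7.02% and 11.3%. Sst cells formed 2.59% around Pvalb and 1.61% around glutamatergic cells.

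GAD1 was also higher in glutamatergic cells close to a Pvalb cell. In glutamatergic cells within 15 µm of a member GAD1 stood at 5.59 (4.49 to 6.88), at 15 to 30 µm at 4.09 (3.68 to 4.54), at 30 to 60 µm at 2.14 (1.94 to 2.35), and beyond 60 µm at 1.69 (1.53 to 1.87). The nearest and farthest bins were 5.75 and 1.36 in region 1, 4.2 and 1.95 in region 2, and 9.13 and 1.87 in region 3. The 142 cells with the subclass label Pvalb are part of these glutamatergic cells, and 25.4% of them lay within 20 µm of a member, against 8.16% of all. With glutamatergic subclass labels only, a setting chosen after seeing the data, GAD1 was at 4.75 (3.58 to 6.18) in the 92 nearest and 1.47 (1.30 to 1.65) in the 1249 farthest cells. In region 2 these were 2.19 (1.00 to 4.16) and 1.74 (1.44 to 2.09), with intervals that overlap. In the whole class GAD2 moved less, from 2.07 (1.43 to 2.91) to 1.32 (1.18 to 1.47). ERBB4 did not follow this order, with 1.26 (0.767 to 1.94), 2.34 (2.03 to 2.68), 1.56 and 1.38. SST was at 5.53 (4.43 to 6.81) in the nearest and 4.04 (3.79 to 4.30) in the farthest bin. The direction of SST turned between regions, with 3.01 near and 4.13 far in region 1. It was 3.88 and 2.60 in region 2, and 19.7 and 5.74 in region 3, where the nearest bin held 27 cells. In nonneuronal cells GAD1 was at 8.82 (5.14 to 14.1) within 15 µm, with 19 cells, and at 1.85 beyond 60 µm. The nonneuronal class includes 15 cells with the subclass label Pvalb, and how many of them are among the 19 was not counted.

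**Figure D5:**
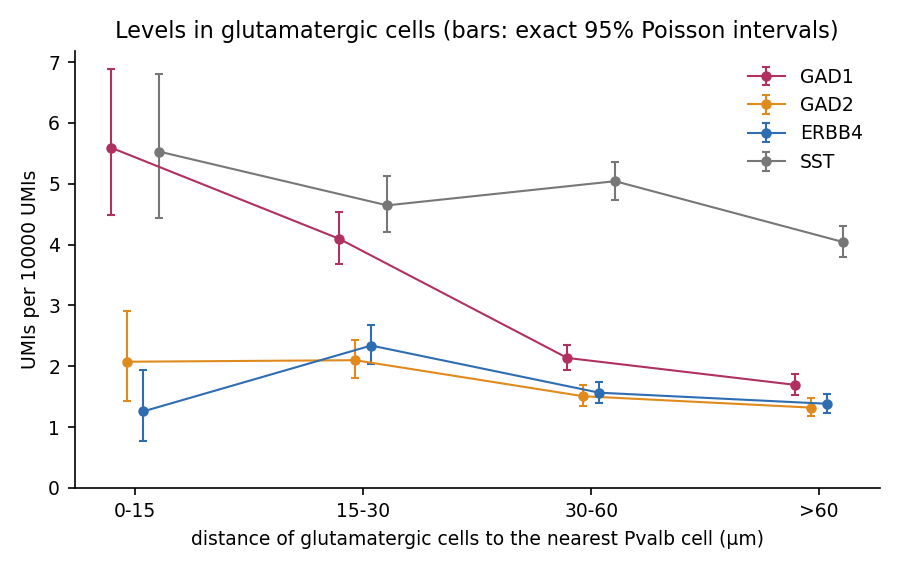
Levels of GAD1, GAD2, ERBB4 and SST in glutamatergic cells (UMIs per 10000 UMIs) by distance to the nearest Pvalb cell in µm, with exact 95% Poisson intervals. GAD1 is at 5.59 within 15 µm and at 1.69 beyond 60 µm, while ERBB4 stays between 1.26 and 2.34.

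Pvalb cells of the deep and the superficial cortex were then compared across genes. Split at their median depth of 408.7 µm, 98 deep and 99 shallow cells were set against each other by the same 2-fold rule. Of 2427 genes tested, 63 (2.6%) were higher and 63 (2.6%) lower in deep cells. Glutamatergic cells split at the same depth lay on the same side for 66 of these 126. The share on the same side over all 2427 genes was not computed, so the 66 are not read as agreement. At a level minimum of 2 the numbers of higher and lower genes were 6 and 10, so most of the 126 genes lay near the level minimum.

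CRH, the corticotropin-releasing hormone, had the largest ratio among the called genes with a symbol. It was at 1.87, 3.43 and 3.91 in the shallow and at 0.865, 0 and 1.07 in the deep Pvalb cells of the 3 regions, a 7.10-fold ratio (3.31 to 17.4) with 53 UMIs in all. Glutamatergic cells showed the same direction, with 3.40 above and 0.574 below the split, or 5.92-fold. Among the other genes higher in shallow cells, TCF12, an E-box transcription factor, was at 14.5, 5.80 and 4.40 against 1.44, 3.26 and 0.537, a 3.78-fold ratio (2.69 to 5.41), and was even in glutamatergic cells (0.963 above and 1.04 below). FBXO11, CHD9 and SNRPD2 were 4.96-, 4.36- and 3.90-fold higher in shallow cells and within 1.15-fold in glutamatergic cells.

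The 5 genes with a symbol that had the highest ratio in deep Pvalb cells were ANO4, PHACTR1, TXLNA, VWC2 and SPIRE1. ANO4, of the anoctamin family, was 3.6-fold (1.85 to 7.67) higher in deep Pvalb cells and 4.28-fold in deep glutamatergic cells. PHACTR1, a regulator of protein phosphatase 1 and actin, was 3.53-fold (2.15 to 6.05) higher in deep Pvalb cells, whereas glutamatergic cells were at 5.26 below and 6.10 above the split. VWC2 was 3.17-fold (1.70 to 6.35) higher in deep Pvalb cells, with 2.02, 3.16 and 2.15 against 0.682, 0.923 and 0.978 in the 3 regions, and low in glutamatergic cells at both depths (0.172 and 0.245). For the genes named in this and the previous paragraph, 5 cells held from 36.8% (TXLNA) to 55.1% (CHD9) of the UMIs in Pvalb cells. The ratios between depths without such cells were not computed.

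Of the genes in the lists above, SYT2 was higher in deep cells (2.61 against 1.29, 2.02-fold, 1.18 to 3.58) and CALB1, the calcium-binding protein calbindin, higher in shallow cells (2.07 against 0.972, 2.12-fold), as it was in glutamatergic cells. The defining genes did not pass the rule. GAD1 was at 15 in deep and 13.0 in shallow cells, GAD2 at 7.31 and 11.9, and KCNC1 at 4.86 and 3.87. ERBB4 was at 31.2 and 33.3 over the 3 regions, but its direction turned between regions, with 24.6 against 35.3 in region 1, 38.5 against 18.1 in region 2 and 12.9 against 84.1 in region 3.

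The mouse section differs from the opossum section in species, age and RNA quality at once, and the limit on cell shares above also holds. In this section, 150 cells met the same rule, or 30.2% of GABAergic cells. The Pvalb gene itself, not analysed here in the opossum, was at 5.56 (4.66 to 6.60) in these cells and at 1.5 in glutamatergic cells, 3.72-fold higher. By the same rule with 4 regions, 33 of 2289 mouse genes were higher (1.44%) and 18 lower (0.786%) than in glutamatergic cells. Of 1041 genes tested in both species, 7 were higher in both (ELAVL2, ERBB4, GAD1, KCNAB1, KCNC1, LSAMP and RBMS3), out of 20 called in the opossum and 14 in the mouse. Erbb4 was 22.3-fold (20 to 24.8) above mouse glutamatergic cells. Ltbp1 and Svil, among the highest in the opossum, had 1 UMI each in mouse Pvalb cells, and Myo16 had 5. The species cannot be told apart from age, tissue and library with 1 animal each, and no test was run.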

How the data were processed

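The UMI counts per gene and segmented cell were deposited by the authors without normalization. They had made them with SAW, the Stereo-seq software, and aligned the tissue by hand. For the opossum they used a custom reference in which gene ends were lengthened at the 3′ side. The deposited labels give the V1 region, the class and subclass and the round of each label. V1 cells held at least 102 UMIs and 79 genes. Of 30613 opossum features 11598 carry a symbol, and other features are not named here.

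Counts were summed over the cells of a group and divided by all UMIs of the group. Intervals are exact Poisson for levels, Clopper-Pearson on the split of the summed counts for ratios and Clopper-Pearson for shares, all at 95%. Cells are not replicates and there is 1 animal per species, so no p-value was computed. The genes named are those of the lists (GABAergic, MGE, channels, Pvalb type, perineuronal net, Sst, glutamate receptors, GABA-A receptors and cell class markers) and, in each comparison, the 10 highest and 10 lowest with a symbol, or 5 and 5 between depths. The members, lists and rules were chosen with earlier results of these data known. The distance bins, the groups joined at 20 µm, the comparison without 5 cells and the distances with glutamatergic subclass labels only were chosen after seeing the data. Positions were converted at 2 units per µm. No doublet caller was run on segmented cells. The rule for calls was tested on simulated counts of both comparisons between groups, and not for the split by depth. The scripts ran in Python 3.11.15 with pandas 2.3.3, matplotlib 3.10.9, scipy 1.17.1 and numpy 2.4.6.

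Alternatives were cells of at least 500 UMIs, labels of the first round, the mean over cells, each region left out, all Pvalb-labelled cells, glutamatergic subclass labels only, depth weighting, level minimums of 0.5 and 2, unscaled depth, and radii of 20 and 50 µm. The sequences of opossum genes were not used here. Some genes that the rule names are not reported here.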

Additional observations from a re-analysis of the deposited data

How the results depend on the processing

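With labels of the first round only, the counts against glutamatergic cells were 86 higher and 132 lower, those against Sst cells 157 and 159, GAD2 was at 10.4 and ERBB4 at 39.9. With all Pvalb-labelled cells GAD1 was at 11.5, GAD2 at 7.49 and ERBB4 at 22.5. With glutamatergic subclass labels only, 59 genes were higher and 74 lower than in glutamatergic cells, of which 57 and 50 were main calls. With the mean over cells, the counts were 69 and 49 against glutamatergic cells, of which 55 and 41 were main calls. Against Sst cells they were 107 and 120, of which 53 and 70 were main calls. With 1 cell per group of members joined at 20 µm, chosen after seeing the data, GAD2 was at 8.16, the median depth was 415 µm, and the counts against glutamatergic cells were 71 and 49. With level minimums of 0.5 and 2 the genes higher and lower were 144 and 130 or 32 and 20 against glutamatergic cells, 248 and 235 or 19 and 37 against Sst cells, and 185 and 183 or 6 and 10 between depths, since more or fewer genes are then tested. Thinned to 300 UMIs, 34.4% of Pvalb cells had a GAD1 and 2.08% a HAPLN4 UMI, against 75.1% and 11.7% from all UMIs. Pvalb cells formed 22.3% of neighbors at a radius of 20 µm and 7.74% at 50 µm.

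With each region left out in turn, GAD1 ranged from 13.2 to 15.6, GAD2 from 9.27 to 9.35, HAPLN4 from 0.963 to 1.12 and ERBB4 from 29.8 to 34.3. Genes higher and lower ranged from 74 to 86 and from 59 to 74 against glutamatergic cells, from 105 to 177 and from 147 to 210 against Sst cells, and from 117 to 175 and from 111 to 195 between depths. Only 2 regions then have to lie on the same side, which lets more genes through. The median depth ranged from 371 to 422 µm, its interquartile range from 230 to 364 µm, the share of Pvalb neighbors from 10.6 to 14.3% and that of nonneuronal neighbors from 12.3 to 13.6%. The ratios of the 10 highest and 10 lowest genes against glutamatergic and Sst cells kept their side under every alternative run on them that gave a value. All Pvalb-labelled cells were not run on these ratios, and no alternative was run on the ratios of other genes or between depths. Of the ratios run, 8 to Sst cells of 5 genes (SVIL, LTBP1, NDST3, VWC2 and ZMAT4) had no value because the Sst cells left held 0 UMIs. Separately, leaving out the 5 Sst cells with most ARHGAP18 UMIs reversed that gene, with 0.243 in Sst against 0.285 in Pvalb cells.

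A single animal, 84 Sst cells and RNA in cells of other classes limit these values. No paired analysis was possible because each species has 1 sample.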
